A study of Equus asinus with 6 samples.

Results

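The transcripts described here encode mitochondrial respiratory complexes II and V, with complexes III and IV beside them. They were taken from the deposited gene table by name, as the rows whose symbol is SDHA, SDHB, SDHC, SDHD or CYC1 or begins with SDHAF, UQCR, ATP5 or COX and a digit. Of 20873 rows, 24 carried such a name. All 24 belonged to complex II (4 subunits and 4 assembly factors) or were named for complex V (14 subunits and 2 further ATP5 names), and 0 rows carried a UQCR, CYC1 or COX name. A further 34 rows listed under a LOC number were paired by gene ID in a RefSeq gene table with symbols of the same pattern, 9 of complex III, 14 subunits and 9 assembly factors of complex IV, and 2 of complex V. These 34 are described separately, because their names did not come from the deposited table.

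The respiratory chain sits in the inner mitochondrial membrane and passes electrons from food-derived hydrogen to oxygen while pumping protons. Complex II, succinate dehydrogenase, is also an enzyme of the tricarboxylic acid cycle and feeds electrons from succinate to ubiquinone without pumping. Complexes III and IV carry the electrons on to cytochrome c and oxygen and pump protons, and complex V, ATP synthase, uses the returning protons to turn a rotor and make ATP. In skeletal muscle the content of these complexes is known to vary with fibre type and training, and several subunits of complex IV have a muscle form and a widely expressed form.

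RNA of longissimus dorsi, the long muscle along the back, was counted in 6 libraries from Guangling donkeys (Equus asinus) of 24 months. Muscle of high intramuscular fat (IMF) content gave 3 libraries and muscle of low IMF content gave 3. Breed, age and muscle were shared by both groups, and no further treatment or allele is named in the labels. Neither the fat contents nor the sex of the animals was given in the sources used here. Nothing there states that each library came from its own animal, and p-values therefore speak only to the spread among these libraries, which may be technical.

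The libraries held 39052998 to 47494157 assigned reads. Fibre genes could check the tissue label as skeletal muscle, but not which muscle it was. Of these, 10 of 11 slow fibre genes and 11 of 13 fast fibre genes were listed, all with reads in every library but PVALB. CPM here is the read count relative to the library total after trimmed-mean (TMM) scaling. The slow fibre genes summed to 69949, 32114 and 46717 CPM in the high IMF libraries, against 54310.5, 41961 and 41932 CPM in the low IMF libraries. Of these sums MB gave 19601, 10409 and 22443 CPM in the high IMF libraries, against 11849, 13754 and 12815 CPM in the low IMF libraries. MB was the only 1 of the 10 slow fibre genes that was highest in high IMF replicate 3. The fast fibre genes summed to 20719, 68619 and 114311 CPM in the high IMF libraries, against 68059, 99059 and 92137 CPM in the low IMF libraries. Only high IMF replicate 1 had a higher sum for the slow than for the fast list. Low IMF replicates 2 and 3 were far more alike than any other pair of libraries, with a chi-square per degree of freedom over genes of 7.7, against 118 to 560 for the other pairs. They still differed beyond counting noise and were kept as 2 samples. All 24 complex II and V genes passed the filter on low counts, with 336 to 93835 reads per gene and library. The lowest of these counts carries a counting error of 5.46%, far below the differences between libraries.

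The 24 genes were lower in high than in low IMF muscle on average in nearly every case, but by little, and no gene passed the test. Of the 24, 23 had a negative log2 fold of high over low IMF, where 48.8% of all 15933 genes tested did. The median log2 fold was -0.19, ranging over the genes from -0.51 to 0.08, beside a median of 0.01 over all genes tested. edgeR's quasi-likelihood test with Benjamini-Hochberg adjustment over all genes called 0 of the 24 at an adjusted p under 0.05 (lowest 0.625), where it called 0.0% of all genes in either direction. At an unadjusted p under 0.05 it had 1 of the 24, SDHAF4, where 2.74% of all genes were lower at that level. The 95% interval of the log2 fold held 0 for 23 of the 24 genes, and the standard error, 0.16 to 0.37 over the genes, exceeded the size of the fold for most of them.

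The average hid a split among the high IMF libraries. Each gene's log2 CPM was set against its own mean over the 6 libraries, and the median of these deviations over the 24 genes, called the level here, was -0.40, -0.39 and 0.40 in the high IMF libraries and 0.12, 0.14 and 0.10 in the low IMF libraries. High IMF replicates 1 and 2 were thus the 2 lowest libraries and high IMF replicate 3 the highest, with the low IMF libraries close together in between. High IMF replicates 1 and 2 were the 2 lowest libraries for 22 of the 24 genes, where they were so for 11.2% of all genes tested. High IMF replicate 3 was the highest of the 6 for 17 of the 24, where it was so for 22.3% of all genes. The sum over the 24 genes was 7236, 6943 and 12970.5 CPM in the high IMF libraries, against 10373, 10831 and 10268 CPM in the low IMF libraries. As a share of all assigned reads, the sum was 0.838, 0.779 and 1.15% in the high IMF libraries. In the low IMF libraries this share was 1.07, 0.979 and 0.953%. Such a share scales each library by its total reads alone, and so depends on what else the library held. In bulk tissue, fewer cells of a type and less RNA per cell cannot be told apart.

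**Figure D1:**
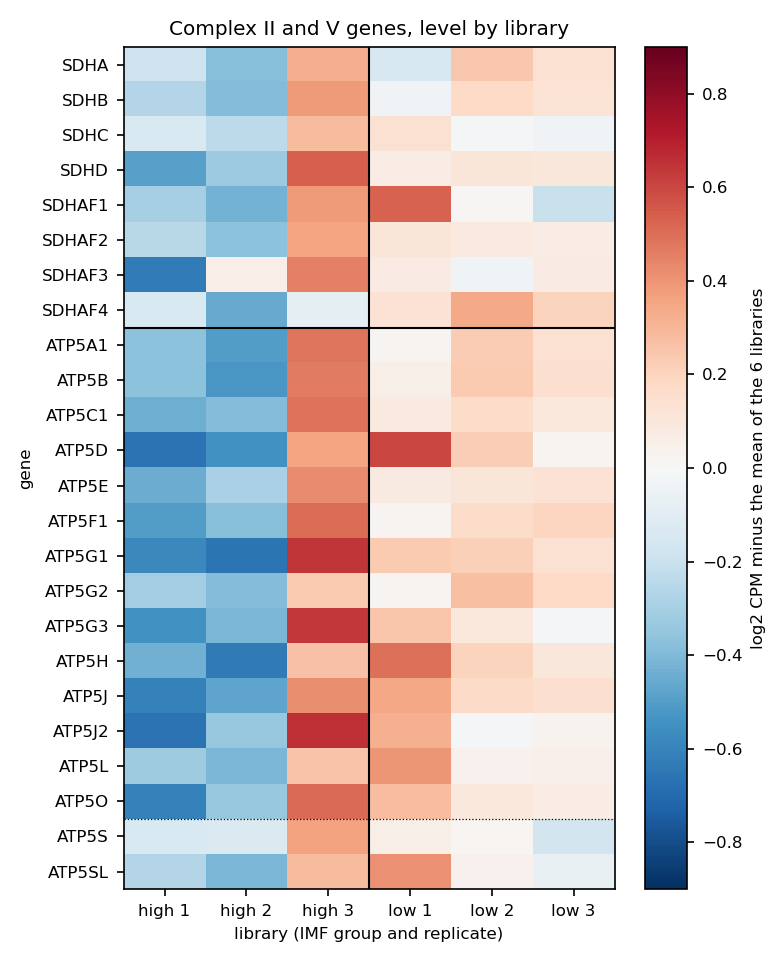
Level of each of the 24 complex II and V genes (rows) in each library (columns), as log2 CPM relative to the mean of that gene across the 6 libraries; blue is below and red above that mean. The columns of high IMF replicates 1 and 2 are blue almost throughout, that of high IMF replicate 3 is red except for SDHAF4, and the low IMF columns are mostly pale, with low IMF replicate 1 red for SDHAF1, ATP5D and ATP5H.

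Among the 4 subunits of complex II, the groups overlapped in every case. SDHA, the flavoprotein that oxidises succinate, measured 805, 700.0 and 1148 CPM in the high IMF libraries, against 829, 1079 and 1007 CPM in the low IMF libraries. SDHB, the iron-sulphur subunit that relays the electrons, measured 293, 269 and 459.7 CPM in the high IMF libraries, against 345, 399 and 383 CPM in the low IMF libraries. For both genes the 2 lowest values and the highest value were all high IMF libraries. Their log2 folds were -0.14 (standard error 0.26) and -0.14 (0.25), with adjusted p-values from edgeR of 0.956 and 0.953. SDHC and SDHD anchor the enzyme in the membrane and form the ubiquinone site. SDHC measured 265, 247 and 354 CPM in the high IMF libraries, against 321, 288 and 284 CPM in the low IMF libraries. No other subunit of complex II spanned so narrow a range. SDHD measured 245, 274 and 499 CPM in the high IMF libraries, against 360.4, 371 and 369 CPM in the low IMF libraries, and its low IMF libraries lay close together while its high IMF libraries spanned a 2.04-fold range. Neither anchor gene passed (log2 folds of -0.04 and -0.11, edgeR adjusted p of 0.979 and 0.97). Means and SDs over 3 libraries show the same: SDHD averaged 339 ± 139 CPM in high IMF muscle and 367 ± 5.76 CPM in low IMF muscle.

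The 4 assembly factors of complex II were listed at much lower levels than the subunits, and one of them separated the groups. SDHAF4, which binds flavinated SDHA on its way to SDHB, measured 28.3, 22.7 and 29.3 CPM in the high IMF libraries, against 34, 39.3 and 35.7 CPM in the low IMF libraries. All 3 high IMF libraries lay below all 3 low IMF libraries. The library that was highest for the subunits, high IMF replicate 3, was not so here. SDHAF4 averaged 26.8 ± 3.56 CPM in high IMF muscle and 36.4 ± 2.72 CPM in low IMF muscle, a log2 fold of -0.44 (95% interval -0.82 to -0.06), with an unadjusted p of 0.0278 and an adjusted p of 0.625 in edgeR. It was the only gene of the 24 whose groups did not overlap. High IMF libraries lay entirely below low IMF libraries for 6.1% of all genes tested, so 1 in 24 is not above the background. On the deposited FPKM scale, which divides by gene length and total count, SDHAF4 was also apart, with 17.2, 13.4 and 13.5 FPKM in the high IMF libraries, against 18.5, 18.6 and 17.4 FPKM in the low IMF libraries.

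SDHAF1, needed to place iron-sulphur clusters in SDHB, measured 16, 14.7 and 25.8 CPM in the high IMF libraries, against 28.5, 19.9 and 17.1 CPM in the low IMF libraries. Its highest value belonged to low IMF replicate 1, and the groups overlapped (log2 fold -0.22, standard error 0.29). SDHAF2, which attaches the flavin cofactor to SDHA, measured 54.5, 50.1 and 83 CPM in the high IMF libraries, against 69.7, 68.8 and 68 CPM in the low IMF libraries and followed the pattern of SDHA. SDHAF3, which works with SDHAF1 on SDHB, was the gene of lowest CPM among the 24, with 7.42, 12 and 15.8 CPM in the high IMF libraries, against 12.2, 11.3 and 12.1 CPM in the low IMF libraries. High IMF replicate 2 fell within the low IMF range, and SDHAF3 was one of 2 genes for which high IMF replicates 1 and 2 were not both at the bottom. Its log2 fold was -0.02, and it turned to 0.08 when libraries were scaled by total reads only.

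**Figure D2:**
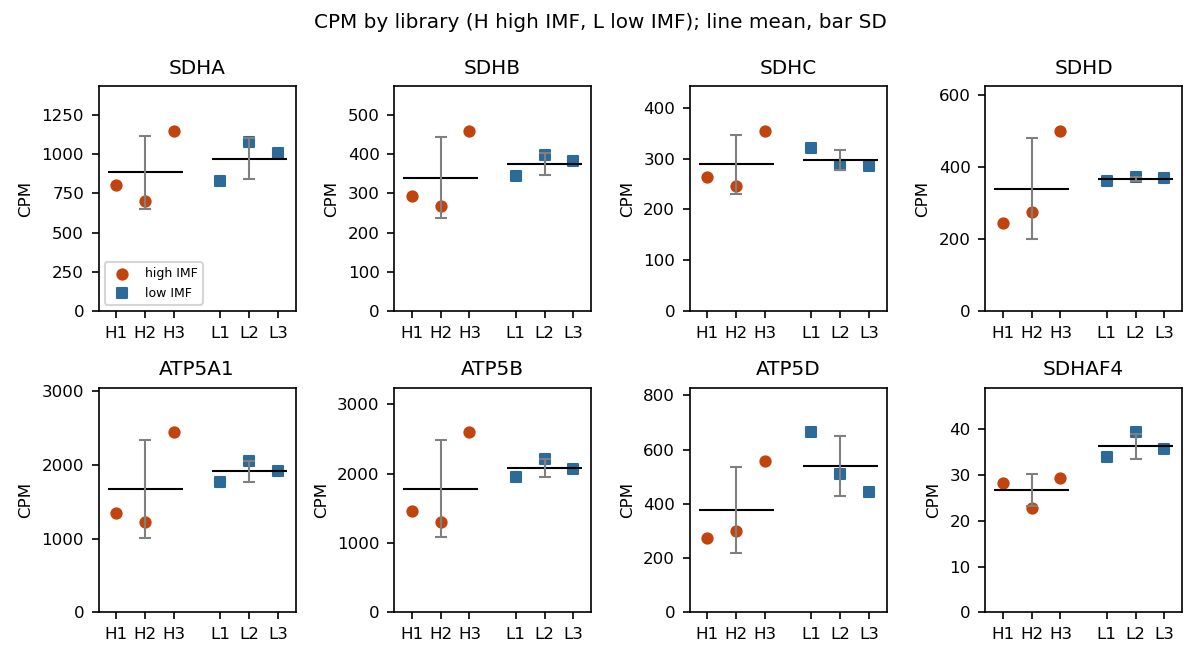
CPM of the 4 complex II subunits, 3 subunits of complex V (ATP5A1, ATP5B and ATP5D) and SDHAF4 in each library. High IMF replicates are red circles and low IMF replicates blue squares, each axis starting at 0. Lines are group means and bars SDs over 3 libraries. In the first 6 panels high IMF replicate 3 is the highest point and high IMF replicates 1 and 2 lie below it, whereas for SDHAF4 all 3 high IMF points lie below the low IMF points.

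ATP synthase supplied most of the 24 genes. All 14 subunit genes had log2 folds below 0, of median -0.22, and in all 14 high IMF replicates 1 and 2 were the 2 lowest libraries. Their levels were -0.48, -0.41 and 0.47 in the high IMF libraries and 0.24, 0.17 and 0.12 in the low IMF libraries. None passed in edgeR, where the lowest adjusted p among them was 0.789 (ATP5H).

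The catalytic head is built from alpha and beta subunits around the gamma shaft. ATP5B, the beta subunit that carries the catalytic sites, measured 1457, 1307 and 2596 CPM in the high IMF libraries, against 1956, 2211 and 2075 CPM in the low IMF libraries. ATP5A1, the alpha subunit, measured 1353, 1229 and 2438 CPM in the high IMF libraries, against 1771, 2049 and 1917 CPM in the low IMF libraries. For both, the lowest and the highest of the 6 libraries were high IMF libraries, and the low IMF libraries were tightly grouped between them. ATP5B averaged 1786 ± 705 CPM in high IMF muscle and 2081 ± 128 CPM in low IMF muscle, with a log2 fold of -0.22 (95% interval -0.98 to 0.54, edgeR adjusted p 0.94). ATP5A1 averaged 1674 ± 665 CPM in high IMF muscle and 1912 ± 139 CPM in low IMF muscle, with a log2 fold of -0.19 (95% interval -0.95 to 0.56, edgeR adjusted p 0.951). These were the 2 genes of highest FPKM among the 24.

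The central stalk links the head to the membrane rotor. ATP5C1, the gamma subunit that turns inside the head, measured 342, 354 and 651 CPM in the high IMF libraries, against 493, 519.9 and 496 CPM in the low IMF libraries, in the pattern of ATP5B. ATP5E, the epsilon subunit, measured 84.4, 94 and 154 CPM in the high IMF libraries, against 122, 124 and 126 CPM in the low IMF libraries, again with high IMF replicate 3 at the top. ATP5D, the delta subunit, differed from both: it measured 275, 300.0 and 559.8 CPM in the high IMF libraries, against 663, 509.9 and 445 CPM in the low IMF libraries. Its highest library was low IMF replicate 1, with high IMF replicate 3 second, and its log2 fold of -0.51 was the most negative of the 24. The standard error was 0.33 and edgeR's p was 0.158 unadjusted and 0.842 adjusted.

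The c subunit forms the rotor ring in the membrane and is made from 3 genes that yield the same mature protein. ATP5G1 measured 374, 354 and 874 CPM in the high IMF libraries, against 658, 647 and 613 CPM in the low IMF libraries, a 2.47-fold range between the lowest and the highest library, second among the 24 genes to that of ATP5J2. ATP5G2 measured 225, 214 and 329 CPM in the high IMF libraries, against 285, 337 and 317 CPM in the low IMF libraries, with low IMF replicate 2 just above high IMF replicate 3. ATP5G3 measured 241, 264 and 546 CPM in the high IMF libraries, against 417, 374 and 346 CPM in the low IMF libraries. The 3 differed in how far high IMF replicate 3 stood out, most for ATP5G1 and ATP5G3 and least for ATP5G2. On the FPKM scale ATP5G1 made up 57.7%, 57.0% and 66.5% of the sum of the 3 genes in the high IMF libraries, against 64.1%, 61.0% and 61.2% in the low IMF libraries. ATP5G2 made up 35.0%, 34.6% and 25.2% in the high IMF libraries, against 27.9%, 32.0% and 31.9% in the low IMF libraries. How reads shared between near-identical copies were counted is not given in the sources used here, so these shares are uncertain.

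The peripheral stalk holds the head still against the turning rotor. ATP5O, which joins the stalk to the head, measured 266, 319 and 576 CPM in the high IMF libraries, against 489, 431 and 423 CPM in the low IMF libraries. ATP5F1, the b subunit that spans the stalk, measured 239.7, 261 and 481 CPM in the high IMF libraries, against 346, 382 and 389.9 CPM in the low IMF libraries. Both had high IMF replicate 3 at the top and high IMF replicates 1 and 2 at the bottom. ATP5J, coupling factor 6, measured 157, 172 and 320.0 CPM in the high IMF libraries, against 305, 270.4 and 264 CPM in the low IMF libraries, with a log2 fold of -0.37. ATP5H, the d subunit, measured 144, 125 and 234 CPM in the high IMF libraries, against 275, 224 and 209 CPM in the low IMF libraries. For ATP5H the highest library was low IMF replicate 1, and its log2 fold of -0.49 (standard error 0.27, edgeR p 0.111 unadjusted and 0.789 adjusted) was second to that of ATP5D in size.

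Small membrane subunits lie beside the ring. ATP5L, subunit g, measured 211, 198 and 314 CPM in the high IMF libraries, against 346, 269.7 and 272 CPM in the low IMF libraries, with low IMF replicate 1 at the top. ATP5J2, subunit f, measured 57.7, 72.3 and 144 CPM in the high IMF libraries, against 114, 90.9 and 93.6 CPM in the low IMF libraries, with high IMF replicate 3 at the top and a log2 fold of -0.12. Of the 24 genes, 7 did not have high IMF replicate 3 as the highest library: SDHAF1, ATP5D, ATP5H, ATP5L and ATP5SL were highest in low IMF replicate 1, and SDHAF4 and ATP5G2 in low IMF replicate 2. High IMF replicate 3 was above all low IMF libraries for the other 17.

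The remaining pair of ATP5 names are not subunits of the synthase. ATP5S, now DMAC2L and known as a coupling factor that associates with the enzyme, measured 42.3, 42.5 and 59.8 CPM in the high IMF libraries, against 48.4, 47.1 and 41.4 CPM in the low IMF libraries. It was the only gene of the 24 with a positive log2 fold (0.08, standard error 0.19, edgeR adjusted p 0.966), and its lowest library was low IMF replicate 3. ATP5SL, now DMAC2 and known as an assembly factor of complex I, measured 53.7, 48.5 and 78.4 CPM in the high IMF libraries, against 85.8, 66.2 and 61.5 CPM in the low IMF libraries, with a log2 fold of -0.24. Both genes were less abundant on the FPKM scale than any of the 14 subunits, with means over the 6 libraries of 18.7 FPKM for ATP5S and 34.7 FPKM for ATP5SL. ATPIF1, the inhibitor that stops the synthase from running backwards and is listed under a name outside the pattern, measured 166, 294 and 449 CPM in the high IMF libraries, against 301, 281 and 293 CPM in the low IMF libraries. Unlike the subunits it had high IMF replicate 2 in among the low IMF values, and its log2 fold was 0.06 (edgeR adjusted p 0.988).

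Which libraries entered decided the size of the difference. Without high IMF replicate 3, all 24 genes had a negative log2 fold and the median was -0.53, beside 49.4% negative over all genes tested. Without high IMF replicate 1 the median was -0.07 and without high IMF replicate 2 it was -0.06. Leaving out high IMF replicate 3 left 19 of the 24 genes at an unadjusted p under 0.05 in edgeR, all lower in high IMF muscle, where 5.43% of all genes were. edgeR still called 0 of them after adjustment (lowest adjusted p 0.258) and called 0.0% of all genes. DESeq2's Wald test on the same 5 libraries, an alternative chosen after seeing the data, called 10 of the 24 at an adjusted p under 0.05, where it called 1.33% of all genes lower. The 10 were ATP5A1, ATP5B, ATP5C1, ATP5D, ATP5F1, ATP5G1, ATP5G3, ATP5H, ATP5J and ATP5O, all of complex V. ATP5G1 had the lowest of these DESeq2 values, with an adjusted p of 5.67e-05 and a log2 fold in edgeR of -0.82 (standard error 0.16). The most negative fold without high IMF replicate 3 was that of ATP5D, at -0.91 (standard error 0.22). No complex II gene was among the 10; the 4 subunits were at -0.37, -0.42, -0.22 and -0.50 for SDHA, SDHB, SDHC and SDHD, and the difference between the complexes was not tested. High IMF replicate 3 was the highest library for 17 of the 24 genes, where it was so for 22.3% of all genes. Leaving it out lowers the high IMF mean of such genes, so the shares of all genes are not a like background here. Nothing in the labels sets high IMF replicate 3 apart, and the 6-library values are the ones that answer the comparison of the groups.

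**Figure D3:**
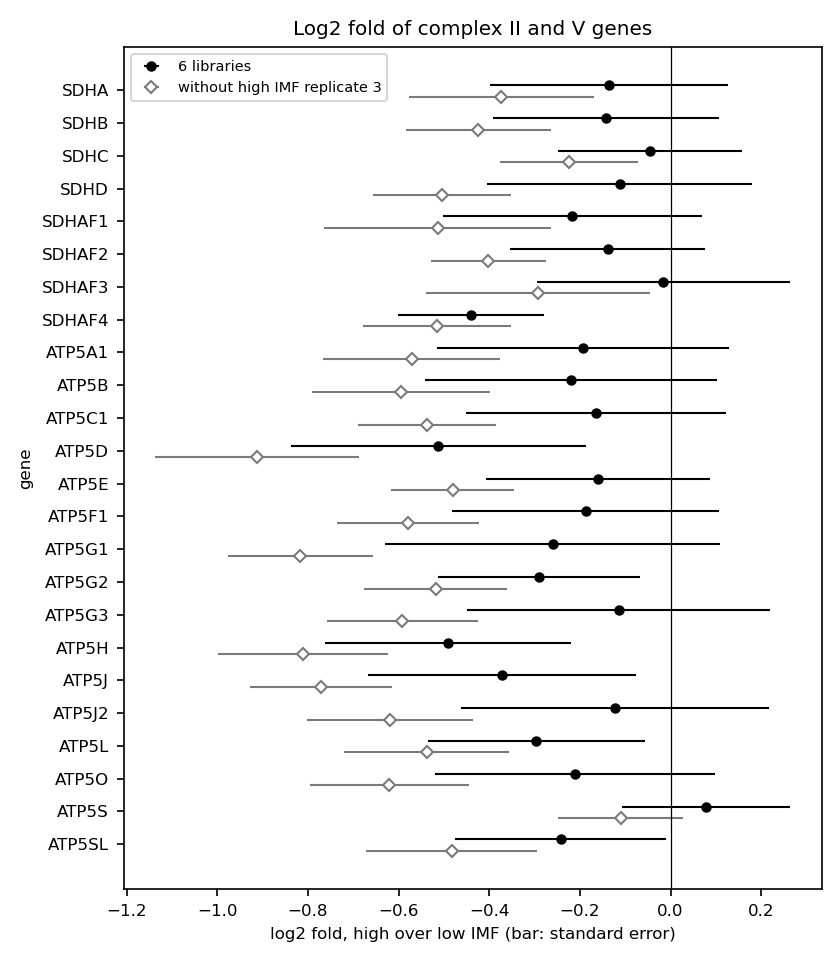
Log2 fold of high over low IMF for the 24 genes from edgeR, with all 6 libraries (black circles) and without high IMF replicate 3 (open grey diamonds); bars are standard errors and the vertical line marks no difference. The black points lie between -0.51 and 0.08 and most of their bars reach close to or past 0, while every grey point lies to the left of 0.

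With all 6 libraries, DESeq2's Wald test called 0 of the 24 genes, and 194 genes in all (1.16%; 0.477% lower in high IMF muscle). Of the 24 genes, 0 had an adjusted p under 0.05 in the authors' deposited table, where the smallest was 0.466.

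Ratios of subunits within a library need no scaling between libraries, and they were far steadier than the levels. ATP5B over ATP5A1, the beta over the alpha subunit on the FPKM scale, was 1.08, 1.07 and 1.07 in the high IMF libraries, against 1.11, 1.08 and 1.09 in the low IMF libraries. That ratio stayed within 1.07 to 1.11 in all 6 libraries, although the CPM of ATP5B spanned a 1.99-fold range. ATP5C1 over ATP5A1 was 0.39, 0.444 and 0.412 in the high IMF libraries, against 0.43, 0.392 and 0.4 in the low IMF libraries. SDHB over SDHA was 0.99, 1.05 and 1.09 in the high IMF libraries, against 1.13, 1.01 and 1.04 in the low IMF libraries, so the iron-sulphur and flavoprotein subunits also kept close to each other. SDHD over SDHC, the 2 anchors, was 0.956, 1.15 and 1.45 in the high IMF libraries, against 1.16, 1.33 and 1.34 in the low IMF libraries. ATP5D over ATP5A1 was 0.437, 0.524 and 0.493 in the high IMF libraries, against 0.805, 0.535 and 0.499 in the low IMF libraries, with low IMF replicate 1 well above the other 5 libraries. The groups overlapped for this ratio.

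On the deposited FPKM scale the 24 genes ranged from 5.69 FPKM for SDHAF1 to 1013 FPKM for ATP5B, as means over the 6 libraries. After ATP5B and ATP5A1 (934 FPKM) came ATP5G1 (729), ATP5O (525) and ATP5D (515), and ATP5O and ATP5D exchanged places between libraries. The complex II subunits lay in the middle, at 327 FPKM for SDHB, 311 for SDHA, 255 for SDHD and 208 for SDHC. SDHB and SDHA did not differ beyond their spread over libraries (SDHB measured 314, 279.7 and 375 FPKM in the high and 331, 334 and 329 FPKM in the low IMF libraries, and SDHA 317, 267 and 343 FPKM in the high and 292, 332 and 318 FPKM in the low IMF libraries). The 4 assembly factors, ATP5S, ATP5SL and ATP5J2 were the 7 lowest genes, all below 40 FPKM on average.

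The pattern over libraries depended in part on scaling. TMM factors were 1.16, 1.12 and 0.884 in the high IMF libraries and 1.04, 0.904 and 0.928 in the low IMF libraries. With total reads alone, the levels of the 24 genes were -0.19, -0.22 and 0.22 in the high IMF libraries and 0.17, -0.01 and -0.01 in the low IMF libraries. High IMF replicate 3 was then the highest library for 15 of the 24 genes and high IMF replicates 1 and 2 were the 2 lowest for 15, where the shares of all genes tested were 8.92% and 2.73%. For the 18 ATP5 genes, those named through RefSeq included, high IMF replicate 3 was then level with low IMF replicate 1, at 0.30 beside 0.31. This scaling moved the median log2 fold of all genes to 0.15, beside -0.10 for the 24 genes, of which 21 were negative. Short genes as a class had the same highest and lowest libraries. Among all genes of at least 10 CPM, the 530 with a length below 1000 bases (implied by counts and FPKM) had levels of -0.28, -0.14 and 0.22 in the high IMF libraries and 0.16, 0.07 and 0.03 in the low IMF libraries. For the 7 of the 24 genes in that class the levels were -0.45, -0.41 and 0.36 in high IMF and 0.27, 0.20 and 0.10 in low IMF muscle. Of the 24, 6 genes had a length of 2000 to 4000 bases, where all 3074 genes had levels of -0.06, -0.05 and 0.06 in the high IMF libraries and 0.02, 0.04 and 0.02 in the low IMF libraries. For these 6 genes they were -0.40, -0.38 and 0.44 in high IMF and 0.15, 0.05 and 0.01 in low IMF muscle, and the libraries lay about as far apart for them as for the shorter ones. The part of gene length in the levels was not tested.

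The 34 rows that RefSeq names were 9 of complex III, 14 subunits and 9 assembly factors of complex IV and 2 of complex V. They showed the same split on the TMM scale, and only its lower part, high IMF replicates 1 and 2, with total reads alone. On the TMM scale their levels were -0.40, -0.38 and 0.36 in the high IMF libraries and 0.21, 0.10 and 0.11 in the low IMF libraries. Of the 34 log2 folds, 31 were below 0, the median being -0.25. By complex, the levels were -0.45, -0.53 and 0.43 in the high IMF libraries and 0.21, 0.19 and 0.15 in the low IMF libraries for complex III, and -0.37, -0.38 and 0.27 in the high IMF libraries and 0.26, 0.04 and 0.06 in the low IMF libraries for the subunits of complex IV. With total reads alone, low IMF replicate 1 was the highest library for the 34 rows: their levels were -0.19, -0.21 and 0.19 in the high IMF libraries and 0.26, -0.04 and 0.01 in the low IMF libraries. High IMF replicate 3 was then highest for 8 of the 34, where it was so for 8.92% of all genes tested. High IMF replicates 1 and 2 were the 2 lowest for 20 of the 34, where they were so for 2.73% of all genes. The share of all assigned reads was likewise highest in low IMF replicate 1, with 0.865, 0.795 and 1.14% in the high IMF libraries, against 1.18, 0.991 and 0.996% in the low IMF libraries. edgeR called 0 of the 34 and had 0 at an unadjusted p under 0.05, and without high IMF replicate 3 the median was -0.59. DESeq2 without that library, the fit chosen after seeing the data, called 17 of the 34 lower, where it called 1.33% of all genes lower. In complex III these were CYC1, UQCRB, UQCRH, UQCRQ, UQCR10, UQCR11 and UQCRFS1, the iron-sulphur protein. In complex IV they were COX4I1, COX5A, COX5B, COX6B1, COX6C, COX7A1, COX7C and the assembly factor COX10, and in complex V ATP5ME and ATP5MJ. Their log2 folds in edgeR without high IMF replicate 3 ran from -0.85 to -0.53, and UQCRH had the lowest DESeq2 adjusted p of the 17, 0.00114. With all libraries, high IMF replicate 3 was highest for 21 of the 34 on the TMM scale. The share of all genes is thus again not a like background. The medians by complex were -0.14 for the 8 genes of complex II, -0.29 for the 9 of complex III, -0.26 for the 14 subunits of complex IV, -0.10 for its 9 assembly factors and -0.22 for the 18 ATP5 genes. In complex III, CYC1, the cytochrome that hands electrons to cytochrome c, measured 556, 479.8 and 955 CPM in the high IMF libraries, against 818, 805 and 746 CPM in the low IMF libraries. UQCRB, a small ubiquinone-binding subunit, had the most negative fold of all 58 genes, -0.53 (standard error 0.29, edgeR adjusted p 0.79), with 231, 337 and 492 CPM in the high IMF libraries, against 473, 545 and 509 CPM in the low IMF libraries. UQCRC1 and UQCRC2, the core subunits, had log2 folds of -0.24 and -0.30. UQCRQ and UQCRH, small subunits of the same complex, had -0.33 and -0.43.

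Within complex IV the genes did not all share one order of libraries. COX6A2, the muscle form of subunit 6A, measured 823, 628 and 1077 CPM in the high IMF libraries, against 1072, 787 and 847 CPM in the low IMF libraries, and COX7A1, the muscle form of subunit 7A, measured 302, 281 and 724 CPM in the high IMF libraries, against 519, 436 and 451 CPM in the low IMF libraries. Both were highest in high IMF replicate 3 on this scale, COX6A2 only just above low IMF replicate 1. On the FPKM scale COX7A1 was again highest in high IMF replicate 3. COX6A2 was then highest in low IMF replicate 1, at 1334 FPKM against 1140 FPKM in high IMF replicate 3. COX6A1, the widely expressed form of 6A, measured 22.1, 22.9 and 17.6 CPM in the high IMF libraries, against 24.3, 21.3 and 18.9 CPM in the low IMF libraries. Its lowest library was high IMF replicate 3. COX8A, the widely expressed form of subunit 8, measured 27, 23.9 and 20.5 CPM in the high IMF libraries, against 24.8, 20.7 and 18.8 CPM in the low IMF libraries, with a positive log2 fold of 0.15 (edgeR adjusted p 0.929). As a ratio of FPKM, COX6A2 over COX6A1 was 34.8, 25.5 and 57.2 in the high IMF libraries, against 41.1, 34.5 and 41.8 in the low IMF libraries. COX7A1 over COX7A2, the muscle over the widely expressed form, was 39.8, 42.6 and 84.2 in the high IMF libraries, against 45.3, 55.8 and 54.9 in the low IMF libraries. High IMF replicate 3 had the highest value of both ratios, and high IMF replicates 1 and 2 did not both lie below the low IMF libraries for COX6A2 over COX6A1. COX4I1 over COX4I2, the common over the lung-type form of subunit 4, ran from 41.9 in low IMF replicate 1 to 81.9 in low IMF replicate 2 and kept to another order. COX4I1 measured 509, 434 and 852 CPM in the high IMF libraries, against 781, 771 and 716 CPM in the low IMF libraries and COX5B, a nuclear subunit near the catalytic core, 426, 397 and 644 CPM in the high IMF libraries, against 688, 614 and 615 CPM in the low IMF libraries, both with high IMF replicates 1 and 2 lowest. Among the assembly factors COX19 (0.20) and COX20 (0.06) had positive log2 folds, and COX10, which makes the haem A precursor, had -0.42, and COX15, the next enzyme of haem A synthesis, -0.24. COX14 and COX17, a copper chaperone, were at -0.10 and -0.05, and the subunit gene COX7B at -0.33.

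**Figure D4:**
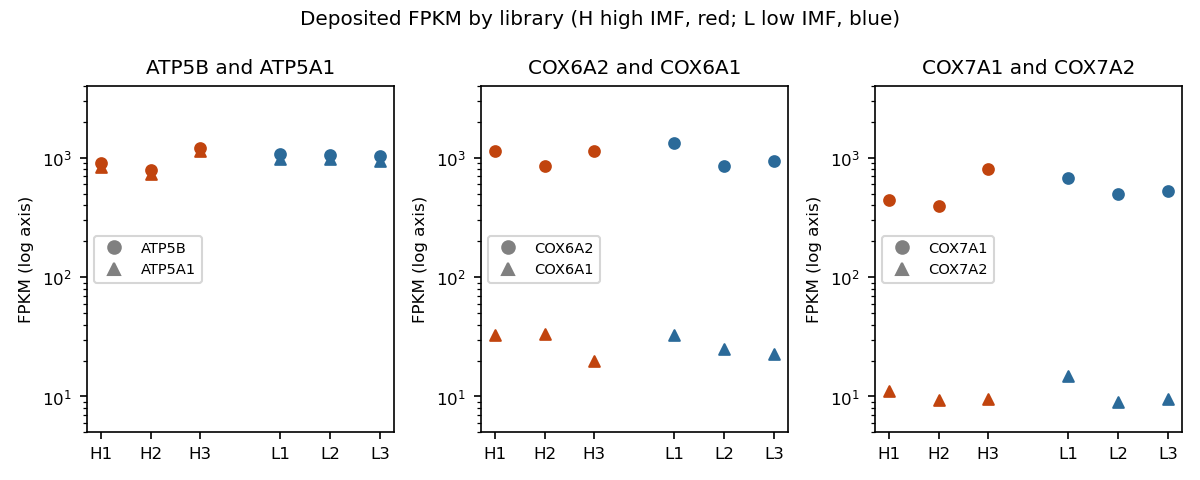
Deposited FPKM (log axis) of 3 gene pairs in each library, high IMF in red and low IMF in blue: ATP5B and ATP5A1 of complex V, and the muscle forms (circles) and widely expressed forms (triangles) of subunits 6A and 7A of complex IV. The pair of complex V runs in parallel, while COX6A2 and COX6A1 lie furthest apart in high IMF replicate 3, as do COX7A1 and COX7A2.

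Other genes of the pathway were read from lists. Of 39 genes with complex I names, 37 had a negative log2 fold (median -0.25) and 0 passed. The names take in NDUFA4, now placed in complex IV, and its relative NDUFA4L2, 1 of the 2 genes with a positive fold (0.40). The levels of the 39 were -0.42, -0.43 and 0.39 in the high IMF libraries and 0.24, 0.17 and 0.11 in the low IMF libraries. With total reads alone, high IMF replicate 3 stood below low IMF replicate 1 for complex I, at 0.21 beside 0.29. Of 14 genes of the tricarboxylic acid cycle, 13 were negative (median -0.16) and 0 passed. Its first enzyme, citrate synthase (CS), measured 402, 371 and 698 CPM in the high IMF libraries, against 473, 557 and 538 CPM in the low IMF libraries. Its high IMF libraries stood in the same order as those of SDHA. Of 28 other factors of complexes II to V, which again include NDUFA4, 22 were negative (median -0.14) and 0 passed. CYCS, cytochrome c, measured 241, 258 and 519 CPM in the high IMF libraries, against 469.7, 433 and 425 CPM in the low IMF libraries. Of 12 regulators of mitochondrial genes, 7 were negative (median -0.06) and 0 passed in edgeR. PPARGC1A, the coactivator PGC-1alpha, measured 19.4, 19.2 and 44 CPM in the high IMF libraries, against 42.6, 29.3 and 27.4 CPM in the low IMF libraries, and ESRRA, its nuclear receptor partner, 128, 126 and 231 CPM in the high IMF libraries, against 174, 186 and 159.5 CPM in the low IMF libraries. Both were low in high IMF replicates 1 and 2 and highest in replicate 3, PPARGC1A only just above low IMF replicate 1. On the FPKM scale PPARGC1A was highest in low IMF replicate 1, at 6.87 FPKM against 6.04 FPKM in high IMF replicate 3. Of the 12 regulators, 7 were highest in high IMF replicate 3, where 22.3% of all genes were. High IMF replicates 1 and 2 were the 2 lowest libraries for 5 of the 12, where they were so for 11.2% of all genes. ESRRG and PPARA, named after their values were seen, were instead highest in high IMF replicate 1, at 26.9 and 92.3 CPM. TFAM, which packages and transcribes mitochondrial DNA, measured 31.5, 30.6 and 37.1 CPM in the high IMF libraries, against 32.6, 33.8 and 32.7 CPM in the low IMF libraries, a far narrower range. NRF1, a factor that binds promoters of many respiratory genes, measured 10.6, 10.6 and 9.56 CPM in the high IMF libraries, against 12.6, 12.7 and 13.8 CPM in the low IMF libraries. GABPB1, a subunit of the GA-binding protein that was named after its values were seen, measured 11, 10.8 and 10.9 CPM in the high IMF libraries, against 13.7, 13 and 12.6 CPM in the low IMF libraries. These were the 2 of the 12 regulators whose high IMF libraries all lay below the low IMF libraries, where 6.1% of all genes were so, and edgeR gave adjusted p-values of 0.734 and 0.82.

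**Figure D5:**
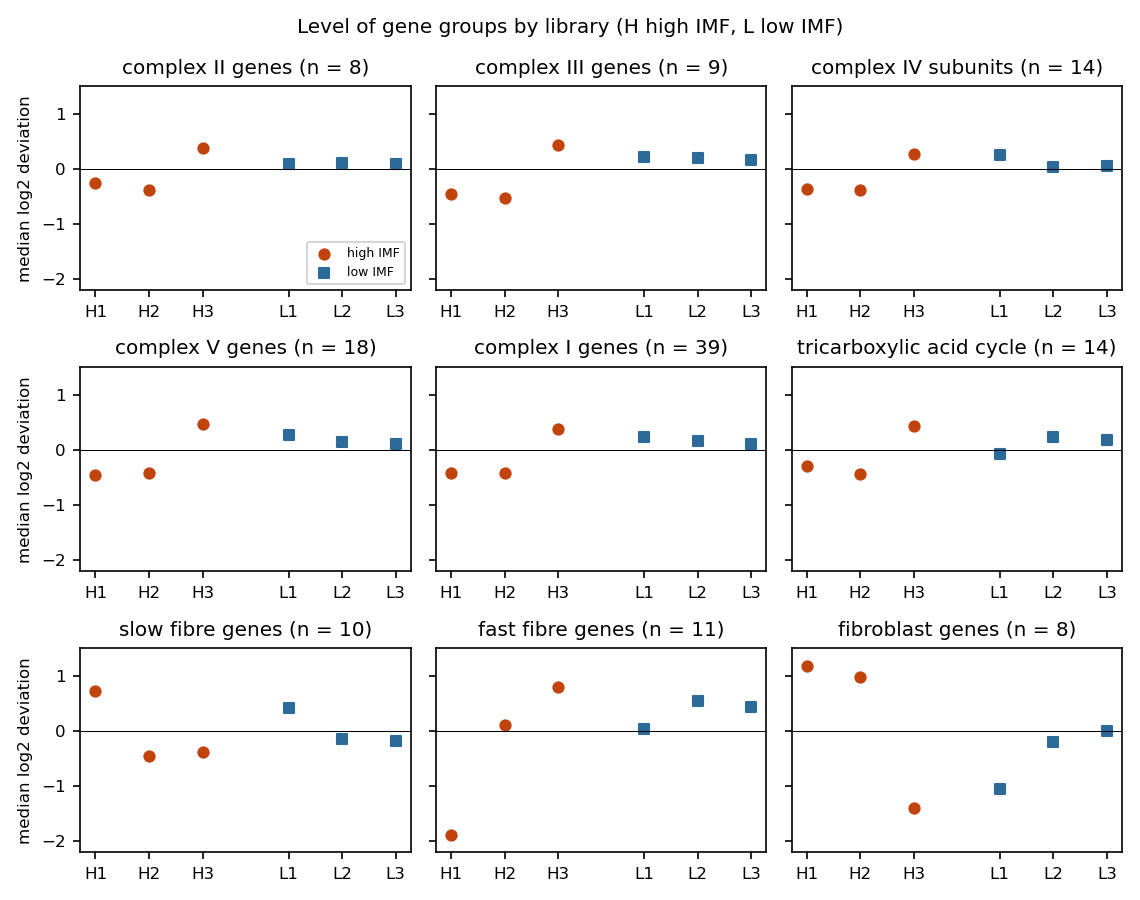
Level of 9 gene groups in each library, as the median deviation of its genes on the log2 CPM scale from their means across the 6 libraries, high IMF replicates as red circles and low IMF replicates as blue squares. Complexes I to V and the tricarboxylic acid cycle share, on the TMM scale, the order with high IMF replicate 3 highest and high IMF replicates 1 and 2 lowest; fibroblast genes run the other way, and high IMF replicate 1 stands far below all others for fast fibre genes.

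Markers of fibre types and of other cells differed between the same libraries. Fast fibre genes had levels of -1.88, 0.11 and 0.79 in the high IMF libraries and 0.04, 0.55 and 0.44 in the low IMF libraries, and 10 of 11 were highest in high IMF replicate 3; PVALB was at 0 reads in high IMF replicate 1 and low IMF replicate 1. Slow fibre genes had 0.72, -0.46 and -0.38 in the high IMF libraries and 0.42, -0.14 and -0.18 in the low IMF libraries. Replicates 1 and 2 of high IMF, alike for complexes II and V, stood on opposite sides for both fibre lists. Fibroblast genes were positive in 8 of 8 (median log2 fold 1.23) with levels of 1.17, 0.98 and -1.40 in the high IMF libraries and -1.05, -0.20 and -0.01 in the low IMF libraries. Here high IMF replicate 3 was the lowest library and replicates 1 and 2 the highest. Their summed level was 1552, 1242 and 259.8 CPM in the high IMF libraries, against 309, 665 and 737 CPM in the low IMF libraries. Adipocyte genes (9 of 10 tested) had 0.91, 2.81 and -0.79 in the high IMF libraries and -2.66, 0.11 and 0.03 in the low IMF libraries, macrophage and myeloid genes 1.91, 0.46 and -0.87 in the high IMF libraries and -0.45, -0.41 and -0.40 in the low IMF libraries, and lymphocyte genes 1.40, 0.66 and 0.52 in the high IMF libraries and 0.11, -0.99 and -1.46 in the low IMF libraries. Endothelial genes had 0.15, -0.17 and -0.68 in the high IMF libraries and 0.32, 0.24 and 0.22 in the low IMF libraries. Adipocyte genes summed to 529, 838 and 351 CPM in the high IMF libraries, against 489, 518 and 472 CPM in the low IMF libraries. Endothelial genes summed to 766, 613 and 406 CPM in the high IMF libraries, against 828, 802 and 801 CPM in the low IMF libraries. Macrophage and myeloid genes summed to 222, 87.1 and 33.5 CPM in the high IMF libraries, against 48.2, 43.9 and 46.5 CPM in the low IMF libraries. Lymphocyte genes, the lowest of these lists, summed to 25.6, 17.3 and 13.2 CPM in the high IMF libraries, against 11.1, 4.29 and 3.16 CPM in the low IMF libraries. LEP had 0 reads in low IMF replicate 1, and no other tested marker of these lists was at 0. The part of fibre type and of other cell types in the levels of complexes II and V was not tested.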

How the data were processed

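RNA-seq read counts of 3 high and 3 low IMF longissimus dorsi libraries, grouped by sample title, were used as deposited by the authors. Per the submitters' processing notes HISAT2 was used with the build mm9, a mouse build, although the names are those of equine genes. The build is therefore uncertain and no coordinates are given. For the counter, its annotation, strand and the treatment of shared reads the sources used here give nothing; more than one sequencer is named. The deposited FPKM values are per gene length and total count, per the file headers, and were used only to compare genes within a library and as a second scale. The authors' deposited fold change (a ratio of high over low), its log2 value and their p-values, with adjusted p-values, come from a comparison whose tool is not stated, and were printed only where that table is named. Per-sample files and the series table differed in 0 cells.

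RefSeq (assembly EquAss-T2T_v2) named 876 rows listed under a LOC number by gene ID; it was used for names only. A further 4550 rows kept a LOC number, and 726 had no name and held 0.704% of reads. No sequence is printed.

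Counts were tested with edgeR 4.0.16 in R 4.3.3 (TMM, filterByExpr with default settings, which kept 15933 genes with 99.96% of reads, quasi-likelihood F-test, group as the only term), adjusted by Benjamini-Hochberg over all genes with a threshold of 0.05. Standard errors are the log2 fold over the root of F, and 95% intervals use edgeR's degrees of freedom. Levels use log2 CPM with a prior count of 2. The test was checked on simulated data. Alternatives were other scalings, no filter and a stricter one (mean CPM of 1, and 10 reads in 3 libraries), DESeq2 1.42.0, limma-voom (limma 3.58.1), a replicate block, low IMF replicates 2 and 3 summed, and each library left out. DESeq2 without each library was added after seeing the data.

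Genes and lists were chosen with earlier results of these data known. Named genes are, in each complex, those of highest mean CPM and smallest p, the tissue isoforms, the SDH, CYC1 and UQCRC genes, ATPIF1, genes with separate groups, genes called in any fit, and genes of opposite sign; the other complex II and V genes were added so that each of the 24 is described. Lists other than the 24 are complex I, the tricarboxylic acid cycle, other factors of complexes II to V, regulators, slow and fast fibres, adipocytes, fibroblasts, endothelium, macrophages and lymphocytes; their members entered no test of their own.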

Additional observations from a re-analysis of the deposited data

How the results depend on the processing

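Of the 24 complex II and V genes, edgeR and limma-voom called 0 under every alternative run, and DESeq2 called 0 except without high IMF replicate 3 (10 of 24). With 1 library left out, edgeR and DESeq2 together called 0 to 10 of the 24 genes and 0 to 17 of the 34 named through RefSeq. Over all genes, edgeR called 0 except without high IMF replicate 1 (3), whereas DESeq2 called 194, and 61 to 623 with 1 library left out. The number of negative folds among the 24 was 21 with library size only, 22 with upper quartile scaling, 23 in the other alternatives that keep every library, and 18 to 24 with 1 library left out.

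With 1 library left out, the median log2 fold ranged over both tools from -0.53 to -0.046 for the 24 genes, from -0.60 to -0.13 for the 34, from -0.67 to -0.15 for complex III, from -0.56 to -0.15 for complex IV subunits and from -0.60 to -0.060 for complex V. The most negative value came in each case without high IMF replicate 3; the cause was not tested.

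No gene of complexes II to V was called with 6 libraries, so the changes of sign below could not touch a call. With library size only, the log2 fold of SDHAF3 was 0.082, the log2 fold of SDHC 0.067, the log2 fold of COX6A1 0.11, the log2 fold of COX6A2 0.0019, the log2 fold of COX14 0.0024 and the log2 fold of COX17 0.029. With upper quartile scaling SDHAF3 was at 0.0015. The log2 fold of COX20 turned to -0.0087 with limma-voom and -0.083 with low IMF replicates 2 and 3 summed. With 1 library left out, over both tools, the log2 fold ranged from -0.60 to 0.087 for ATP5G3, -0.62 to 0.11 for ATP5J2, -0.65 to 0.013 for ATP5ME, -0.12 to 0.16 for ATP5S, -0.36 to 0.014 for COX14, -0.55 to 0.22 for COX17, -0.35 to 0.36 for COX20, -0.39 to 0.21 for COX4I2, -0.14 to 0.060 for COX6A1, -0.33 to 0.065 for COX6A2, -0.70 to 0.12 for COX7A1, -0.52 to 0.0072 for SDHAF1, -0.30 to 0.22 for SDHAF3, -0.23 to 0.046 for SDHC and -0.51 to 0.068 for SDHD.

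The replicate numbers were not taken as pairs: libraries of one number correlated by 0.196, 0.149 and 0.0197 in their deviations from the group means, and high IMF replicate 2 correlated best with low IMF replicate 3 (0.206). With the number as a replicate block, edgeR called 0 genes and 0 of the 24, and 23 of the 24 were negative with a median of -0.25. Counting error, at most 5.46% for the 24 genes, was small beside the spread between libraries, and intervals of their log2 fold reached from -1.28 to 0.68.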
